A study of Mus musculus with 24 samples.

Results

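The 8 genes described here, Tnf, Lta, Ltb, Tnfsf14, Cd40lg, Tnfsf8, Fasl and Tnfsf11, encode ligands of the tumour necrosis factor (TNF) superfamily. They were listed by name, as ligands of this family known from T cells. Earlier results of these data were known when the list was made. All 8 were found among the 9420 genes of the deposited table. TNF superfamily ligands are made as membrane proteins that assemble into trimers, and several are released from the cell surface. Each binds receptors of the TNF receptor superfamily, which signal through adaptor proteins to NF-κB and to kinases, or through death domains to caspases. T cells use them after contact with antigen to help B cells, to activate macrophages and dendritic cells, to kill target cells and to shape lymphoid tissue.

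The cells were Th1 effector cells, the CD4+ T cells that make interferon gamma, from mice of the DO11.10 strain, which carry a transgenic T cell receptor. CD4+ cells were isolated with magnetic beads and, as Th1 cells, stimulated again through the T cell receptor with plate-bound antibody against hamster immunoglobulin, soluble antibodies against CD3 (1 µg/ml) and CD28 (2.5 µg/ml). The unstimulated libraries (0 h) are the controls, and the labels give neither the age of the mice nor the animals behind each library. Newly transcribed RNA was marked with 4-thiouridine (4sU, 200 µM) for 1 h in libraries at 0, 1 and 4 h (2 each) and at 2 and 3 h (1 each). Total RNA was sequenced at 0 and 4 h (2 each) and at 1 and 2 h (1 each). Ribosome-protected fragments (RP), the stretches of mRNA covered by ribosomes, were sequenced at 0, 1 and 4 h (2 each) and at 0.5 and 2 h (1 each). A separate pair of 4sU libraries, with 500 µM for 0.5 h, covered 0 and 0.5 h. Values are FPKM, which divides the fragments of a gene by its length and by those of the library, so that levels of different genes can be compared per length. A change is a difference of log2(FPKM + 1) and is given with its standard error (SE). The added 1 understates the change of genes near 0. Genes with an adjusted p below 0.05 in limma were called.

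The libraries carried the markers of their label. All 7 T cell and Th1 genes checked were in the table, with Cd4 at a median over libraries of 104.09 FPKM in replicate 1 and 85.46 FPKM in replicate 2. Ifng, the gene of interferon gamma, had a median of 6259.4 FPKM in replicate 1 and 736.65 FPKM in replicate 2. Cd3d, Tbx21 and Cxcr3 were also higher in replicate 1, and Cd3e and Il12rb2 were higher in replicate 2. Of the 6 CD8 T cell markers, 5 had a higher median in replicate 1, from Gzma, a protease of killer cells (214.6 against 4.17 FPKM), to Eomes (2.15 against 1.65 FPKM). Klrk1 was higher in replicate 2 (24.76 against 31.77 FPKM). These medians pool 4sU RNA, total RNA and RP over all times, without the short label. Replicate 1 holds times that replicate 2 lacks, so small gaps such as that of Eomes need not be a difference between replicates. Large gaps of genes that change with time, such as that of Ifng, also mix time with replicate. At matched times in 4sU RNA, the 7 T cell and Th1 genes summed to 656.05, 5889.94 and 7973.59 FPKM in replicate 1 at 0, 1 and 4 h. In replicate 2 they summed to 600.77, 1311.09 and 2782.36 FPKM. Depth was inferred for 11 of the 24 libraries, at 8.892 to 26.236 M reads for RP. It is unknown for the 4sU libraries with 1 h of label and for all total RNA libraries except 0 h replicate 2 (4.87 M).

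Tnf, Lta and Ltb lie side by side in the mouse major histocompatibility complex on chromosome 17, and Tnfsf14 lies on the same chromosome. In the GRCm38 build with GENCODE M21 genes, Ltb (ENSMUSG00000024399) spans chr17:35194439-35196320 on the plus strand. Tnf (ENSMUSG00000024401) spans chr17:35199381-35202007 and Lta (ENSMUSG00000024402) chr17:35203165-35205351, both on the minus strand. The gaps are 3060 bases between Ltb and Tnf and 1157 bases between Tnf and Lta. Tnfsf14 (ENSMUSG00000005824) spans chr17:57189492-57194177 on the minus strand. The promoters of these 4 genes are shown because the first 3 are neighbours with different time courses, while Tnfsf14, far from them, had a course close to that of Tnf. Sequences are from RefSeq (GRCm38.p6), 5′ to 3′ on the strand of the gene, ending just before the first exon, and 7 of the 8 ligands had an entry (Cd40lg had none). Capitals mark letters that match a motif searched on both strands.
Tnf promoter, chr17:35202008-35202257, minus strand: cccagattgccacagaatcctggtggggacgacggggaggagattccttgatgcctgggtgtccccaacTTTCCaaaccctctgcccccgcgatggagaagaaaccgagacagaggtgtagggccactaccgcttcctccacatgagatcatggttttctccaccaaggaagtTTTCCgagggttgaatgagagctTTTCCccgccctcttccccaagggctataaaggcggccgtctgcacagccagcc
Lta promoter, chr17:35205352-35205601, minus strand: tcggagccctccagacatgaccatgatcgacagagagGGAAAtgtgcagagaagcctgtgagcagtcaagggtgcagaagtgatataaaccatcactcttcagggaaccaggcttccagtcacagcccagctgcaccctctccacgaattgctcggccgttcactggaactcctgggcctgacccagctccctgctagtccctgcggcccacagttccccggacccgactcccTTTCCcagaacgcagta
Ltb promoter, chr17:35194257-35194438, plus strand: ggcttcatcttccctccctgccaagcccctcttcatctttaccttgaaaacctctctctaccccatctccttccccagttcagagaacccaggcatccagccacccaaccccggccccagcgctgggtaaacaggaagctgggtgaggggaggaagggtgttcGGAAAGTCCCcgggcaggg
Tnfsf14 promoter, chr17:57194182-57194431, minus strand: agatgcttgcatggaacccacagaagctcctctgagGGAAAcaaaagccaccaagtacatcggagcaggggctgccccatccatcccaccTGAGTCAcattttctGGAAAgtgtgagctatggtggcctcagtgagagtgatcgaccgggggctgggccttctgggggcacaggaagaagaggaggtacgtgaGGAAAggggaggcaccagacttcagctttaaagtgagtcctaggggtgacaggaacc

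The motifs searched were the core of NFAT sites (GGAAA), AP-1 (TGANTCA), the cyclic AMP response element (TGACGTCA), Egr (GCGNGGGCG) and the κB consensus, by its name alone. NFAT, AP-1 and NF-κB are factors that act downstream of the T cell receptor. The NFAT core occurred 3 times each in the Tnf and Tnfsf14 promoters and 2 times each in those of Lta and Fasl. The promoters of Ltb, Tnfsf8 and Tnfsf11 held 1 each. Of 32851 mouse promoters of 250 bases, 6.4% hold 3 or more, 21.4% hold 2 or more and 55.6% hold at least 1. In Tnfsf14 an AP-1 match, TGAGTCA, lay at positions -160 to -154 from the start, a motif found in 6.7% of promoters. Ltb alone of the 7 ligands held a κB match, GGAAAGTCCC, which 3.9% of promoters hold and which contains the only NFAT core in that window. No match to the cyclic AMP response element or to Egr was found in the 7 windows. These matches are letters in a window, and no binding was measured.

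**Figure D1:**
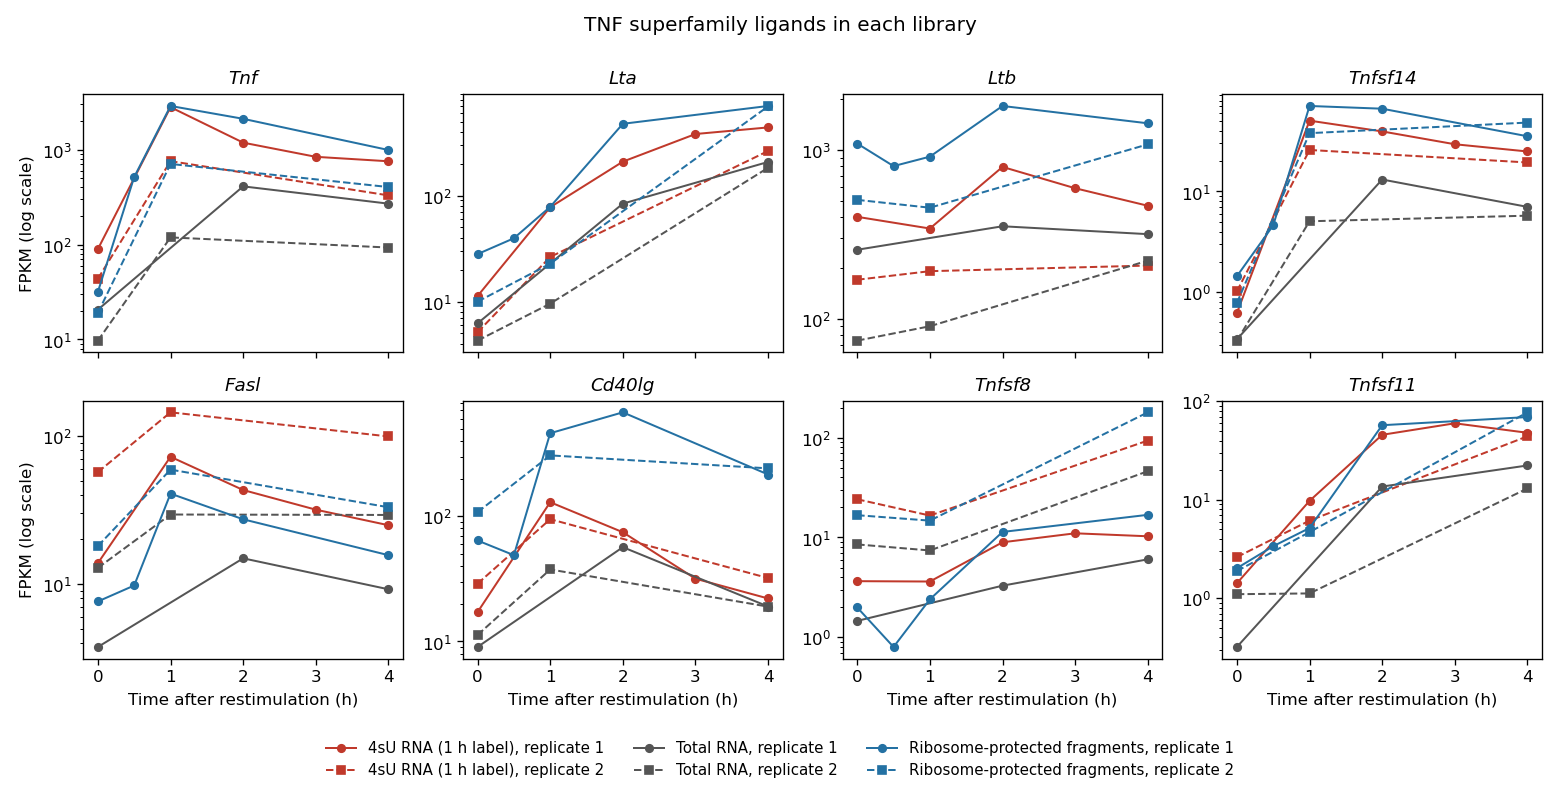
FPKM (log axis) of the 8 ligands against hours after restimulation, with 1 point per library, joined within a kind of library and replicate number. Tnf, Tnfsf14, Fasl and Cd40lg stood highest at 1 or 2 h in most courses, and Lta stood highest at 4 h in all 6.

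Tnf encodes TNF, the inflammatory cytokine that binds the receptors TNFR1 and TNFR2. In 4sU RNA, replicate 1 stood at 89.62, 2804.27, 1185.29, 840.59 and 754.47 FPKM at 0, 1, 2, 3 and 4 h, and replicate 2 at 43.64, 756.75 and 329.69 FPKM at 0, 1 and 4 h. All stimulated libraries lay above both controls, and both courses were highest at 1 h and had come down to 26.9% and 43.6% of that level at 4 h. With the short label the control held 52.44 FPKM and the 0.5 h library 536.45 FPKM. The log2 change in 4sU RNA was 4.52 ± 0.77 SE at 1 h, which did not pass (limma, adjusted p = 0.137), and 2.97 ± 0.77 SE at 4 h, which did (adjusted p = 0.0295). With the replicate number as a block, the change at 1 h was called (adjusted p = 0.00032), and so was the fall from 1 to 4 h (-1.54 ± 0.29 SE, adjusted p = 0.00318, against 0.178 without the block). The change at 4 h was no longer called when either 0 h library or 4 h replicate 1 was left out (adjusted p from 0.0694 to 0.169).

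Total RNA and ribosome-protected fragments of Tnf were likewise above their controls. Total RNA stood at 20.60, 410.36 and 269.81 FPKM in replicate 1 at 0, 2 and 4 h, and at 9.72, 118.94 and 93.02 FPKM in replicate 2 at 0, 1 and 4 h. The stimulated libraries did not overlap with the controls. At 2 h the change was 4.76 ± 0.67 SE (adjusted p = 0.0350), with 1 stimulated library, whose spread was taken from the replicated groups. That library was of replicate 1, where Tnf stood higher, and with the block the change was 4.12. At 4 h the change was 3.39 ± 0.55 SE (adjusted p = 0.0149). These calls were lost without 0 h replicate 2 (adjusted p = 0.105 at 2 h) and without 4 h replicate 1 (0.0704 at 4 h). In RP, replicate 1 stood at 31.71, 515.03, 2886.62, 2114.45 and 991.61 FPKM at 0, 0.5, 1, 2 and 4 h, and replicate 2 at 19.07, 707.17 and 403.69 FPKM at 0, 1 and 4 h. Ribosome-protected Tnf thus stood at 91.03 times its own control at 1 h in replicate 1 and at 37.08 times in replicate 2. It passed at 2 h, sampled in replicate 1 alone (6.37 ± 0.92 SE, adjusted p = 0.0308, change 5.70 with the block), and at 4 h (4.63 ± 0.75 SE, adjusted p = 0.0115). Leaving out either 0 h library ended the call at 2 h (adjusted p = 0.0880 and 0.101), and leaving out 4 h replicate 1 that at 4 h (0.0739). At 1 h it did not (5.80 ± 0.75 SE, adjusted p = 0.109, 0.000928 with the block).

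Lta encodes lymphotoxin alpha, which is secreted as a homotrimer that binds the TNF receptors, or joins Ltb on the cell surface. Its 4sU RNA climbed through the whole series in replicate 1, at 11.27, 77.68, 209.05, 381.09 and 439.76 FPKM at 0, 1, 2, 3 and 4 h. Replicate 2 stood at 5.14, 26.36 and 263.60 FPKM at 0, 1 and 4 h. Each stimulated library was above both controls, and both 4 h libraries were above both 1 h libraries. The changes were 4.60 ± 0.71 SE at 2 h (adjusted p = 0.0316), 5.46 ± 0.71 SE at 3 h (adjusted p = 0.0118) and 5.30 ± 0.58 SE at 4 h (adjusted p = 0.00324). Only replicate 1 was sampled at 2 and 3 h, and with the block the changes there were 4.05 and 4.92. At 1 h it was 2.42 ± 0.58 SE (adjusted p = 0.214, 0.00106 with the block), and the further rise from 1 to 4 h was 2.88 ± 0.58 SE (adjusted p = 0.0190). That last call was lost without 4 h replicate 1 (change 2.51) or 1 h replicate 2 (change 2.12). The call at 3 h was lost without 0 h replicate 2 (change 4.96). The call at 2 h was lost when either 0 h library was left out (changes 5.10 and 4.10), where no gene of all tested passed.

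The same late course was seen in the other kinds of library. Total RNA of Lta stood at 6.23, 83.97 and 207.75 FPKM in replicate 1 at 0, 2 and 4 h, and at 4.28, 9.56 and 183.08 FPKM in replicate 2 at 0, 1 and 4 h. In RP it stood at 28.05, 39.56, 78.33, 475.76 and 700.78 FPKM in replicate 1 at 0, 0.5, 1, 2 and 4 h, and at 9.98, 22.78 and 694.99 FPKM in replicate 2 at 0, 1 and 4 h. In RP the 1 h library of replicate 2, at 22.78 FPKM, lay below the control of replicate 1, at 28.05 FPKM, so the groups at 0 and 1 h overlapped, while the 4 h libraries lay far above both. At 4 h the log2 change of Lta was 4.99 ± 0.25 SE in total RNA (adjusted p = 0.000916) and 5.29 ± 0.67 SE in RP (adjusted p = 0.00665, 0.0513 without RP 4 h replicate 1). At 1 h in RP it was 1.28 ± 0.67 SE and was not called with or without the block (adjusted p = 0.123 and 0.539).

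Ltb encodes lymphotoxin beta, the membrane anchor of the heterotrimer that binds the lymphotoxin beta receptor. It was the most abundant of the 8 ligands in every control library, at 401.17 and 169.84 FPKM in 4sU RNA, 255.88 and 73.94 FPKM in total RNA and 1091.58 and 505.94 FPKM in RP. In replicate 1 that put it at or above the 98.7 percentile of all genes in the table in each kind of library. In replicate 2 it stood at the 98.4 percentile in 4sU RNA, 95.1 in total RNA and 96.9 in RP. Its 4sU RNA then stood at 341.94, 793.44, 592.90 and 466.74 FPKM in replicate 1 at 1, 2, 3 and 4 h, and at 190.96 and 206.14 FPKM in replicate 2 at 1 and 4 h. Stimulated and control libraries overlapped. Its log2 change in 4sU RNA at 4 h was 0.25 ± 0.61 SE (adjusted p = 0.779). In total RNA it stood at 352.65 and 316.67 FPKM in replicate 1 at 2 and 4 h, and at 89.99 and 220.46 FPKM in replicate 2 at 1 and 4 h. In RP it stood at 802.21, 912.78, 1824.12 and 1439.59 FPKM in replicate 1 at 0.5, 1, 2 and 4 h, and at 454.33 and 1080.15 FPKM in replicate 2 at 1 and 4 h. No comparison of Ltb over time was called without the block. With it, the 4 h changes in total RNA (0.93 ± 0.21 SE) and RP (0.75 ± 0.24 SE, adjusted p = 0.0379) were called, as were 4sU RNA at 2 h (1.06 ± 0.29 SE, adjusted p = 0.0301) and RP at 4 h against 1 h (0.95 ± 0.24 SE, adjusted p = 0.0210).

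Tnfsf14 encodes LIGHT, a ligand of the lymphotoxin beta receptor and of HVEM (Tnfrsf14) on T cells. Unstimulated cells held next to none: 0.62 and 1.02 FPKM in 4sU RNA, 0.34 and 0.33 FPKM in total RNA and 1.44 and 0.78 FPKM in RP. Behind the RP values lay an inferred 21 and 5 reads, and behind total RNA replicate 2 only 3. In 4sU RNA it then stood at 50.54, 39.50, 29.46 and 24.97 FPKM in replicate 1 at 1, 2, 3 and 4 h, and at 25.85 and 19.42 FPKM in replicate 2 at 1 and 4 h. All of these lay more than 10 FPKM above both controls, and the highest value of each course came at 1 h. It was the only ligand called at 1 h in 4sU RNA (4.36 ± 0.33 SE, adjusted p = 0.0178) and in RP (4.66 ± 0.35 SE, adjusted p = 0.0299) without the block. Leaving out either 0 h library ended both calls, and no gene of all tested passed in those fits. Leaving out RP 1 h replicate 1 ended the RP call. The change was then 4.20 and 4.52 in 4sU RNA, and from 4.22 to 4.89 in RP.

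At 4 h Tnfsf14 remained high in ribosome-protected fragments. RP replicate 1 stood at 4.61, 70.70, 66.42 and 35.36 FPKM at 0.5, 1, 2 and 4 h, and replicate 2 at 37.96 and 48.36 FPKM at 1 and 4 h. In total RNA it stood at 13.15 and 7.03 FPKM in replicate 1 at 2 and 4 h, and at 5.06 and 5.75 FPKM in replicate 2 at 1 and 4 h. The groups at 0 and 4 h did not overlap in any kind of library. The 4 h change was 3.67 ± 0.33 SE in 4sU RNA (adjusted p = 0.00250), 2.46 ± 0.22 SE in total RNA (adjusted p = 0.00474) and 4.35 ± 0.35 SE in RP (adjusted p = 0.00430).

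Tnfsf11 encodes RANKL, which drives the formation of osteoclasts and acts on dendritic cells through RANK (Tnfrsf11a, not in the table). The gene lies on chromosome 14 (ENSMUSG00000022015, chr14:78277445-78308043, minus strand). Its 4sU RNA stood at 1.42, 9.76, 45.77, 59.90 and 47.97 FPKM in replicate 1 at 0, 1, 2, 3 and 4 h, and at 2.62, 6.15 and 44.21 FPKM in replicate 2 at 0, 1 and 4 h. Every stimulated library lay above both controls, and the libraries from 2 h on lay above those at 1 h. In total RNA it stood at 0.32, 13.64 and 22.34 FPKM in replicate 1 at 0, 2 and 4 h, and at 1.10, 1.12 and 13.05 FPKM in replicate 2 at 0, 1 and 4 h, so that the 1 h library matched its own control. In RP it stood at 2.02, 3.38, 5.17, 57.28 and 69.32 FPKM in replicate 1 at 0, 0.5, 1, 2 and 4 h, and at 1.89, 4.70 and 77.44 FPKM in replicate 2 at 0, 1 and 4 h.

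Tnfsf11 had the smallest adjusted p of the 8 ligands at 4 h in 4sU RNA and in RP. The change was 3.99 ± 0.28 SE in 4sU RNA (adjusted p = 0.00181), 3.44 ± 0.34 SE in total RNA (adjusted p = 0.00474) and 4.65 ± 0.17 SE in RP (adjusted p = 0.00122). From 1 to 4 h it rose by a further 2.42 ± 0.28 SE in 4sU RNA (adjusted p = 0.00631) and 3.65 ± 0.17 SE in RP (adjusted p = 0.00358, 0.0540 without RP 4 h replicate 1). At 1 h against 0 h it was called only with the block, in 4sU RNA (1.57 ± 0.25 SE, adjusted p = 0.0131) and RP (1.01 ± 0.15 SE, adjusted p = 0.0321).

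Cd40lg encodes CD40 ligand, the signal by which helper T cells activate B cells and antigen-presenting cells through CD40. The gene lies on chromosome X (ENSMUSG00000031132, chrX:57212143-57224042, plus strand). Its 4sU RNA stood at 17.16, 129.53, 74.55, 31.72 and 22.05 FPKM in replicate 1 at 0, 1, 2, 3 and 4 h, and at 28.97, 94.75 and 32.09 FPKM in replicate 2 at 0, 1 and 4 h. Both 1 h libraries lay above all other 4sU libraries with the 1 h label, and the 4 h libraries overlapped with the controls. The fall from 1 to 4 h was called (-2.02 ± 0.32 SE, adjusted p = 0.0102, 0.0546 without 4 h replicate 1). The change from 0 to 1 h was 2.26 ± 0.32 SE (adjusted p = 0.0921, 0.00456 with the block), and at 4 h it was 0.24 ± 0.32 SE (adjusted p = 0.584).

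Total RNA and ribosome-protected fragments of Cd40lg stayed above their controls at 4 h. Total RNA stood at 9.04, 56.64 and 19.02 FPKM in replicate 1 at 0, 2 and 4 h, and at 11.27, 37.60 and 18.98 FPKM in replicate 2 at 0, 1 and 4 h. RP stood at 64.05, 48.90, 460.62, 676.33 and 215.48 FPKM in replicate 1 at 0, 0.5, 1, 2 and 4 h, and at 107.88, 306.32 and 241.36 FPKM in replicate 2 at 0, 1 and 4 h. The groups at 0 and 4 h did not overlap in total RNA or in RP. Cd40lg was called at 2 h in total RNA (2.38 ± 0.28 SE, adjusted p = 0.0226) and in RP (3.01 ± 0.40 SE, adjusted p = 0.0282). At 4 h it was called in RP (1.44 ± 0.33 SE, adjusted p = 0.0278) and not in total RNA (0.85 ± 0.23 SE, adjusted p = 0.0533). The call at 2 h was lost in total RNA without 0 h replicate 2 (adjusted p = 0.0609) and in RP without either 0 h library (0.0814 and 0.0744). The RP call at 4 h was lost without RP 0 h replicate 1 or either 4 h library (adjusted p from 0.102 to 0.112), and the total RNA change passed with median-of-ratios scaling (0.96, adjusted p = 0.0406).

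Fasl encodes Fas ligand, which kills cells that carry Fas. The gene lies on chromosome 1 (ENSMUSG00000000817, chr1:161780689-161788495, minus strand). Its 4sU RNA stood at 13.84, 72.35, 43.14, 31.79 and 24.96 FPKM in replicate 1 at 0, 1, 2, 3 and 4 h, and at 57.02, 144.40 and 99.24 FPKM in replicate 2 at 0, 1 and 4 h. Within each replicate the 1 h library was highest, but the control of replicate 2 lay above the 2, 3 and 4 h libraries of replicate 1. In total RNA it stood at 3.76, 14.92 and 9.22 FPKM in replicate 1 at 0, 2 and 4 h, and at 12.86, 29.48 and 29.28 FPKM in replicate 2 at 0, 1 and 4 h. In RP it stood at 7.63, 9.78, 40.79, 27.37 and 15.67 FPKM in replicate 1 at 0, 0.5, 1, 2 and 4 h, and at 18.07, 59.25 and 33.01 FPKM in replicate 2 at 0, 1 and 4 h.

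Without the block no change of Fasl was called, with 1.82 ± 0.85 SE in 4sU RNA (adjusted p = 0.425) and 1.97 ± 0.50 SE in RP (adjusted p = 0.296) at 1 h. With the replicate number as a block both were called (adjusted p = 0.00807 and 0.00699). So was the fall from 1 to 4 h, at -1.02 ± 0.24 SE in 4sU RNA (adjusted p = 0.00938) and -1.08 ± 0.19 SE in RP (adjusted p = 0.00626). At 4 h against 0 h the block fit called a change of 0.80 ± 0.24 SE in 4sU RNA (adjusted p = 0.0231), 0.89 ± 0.19 SE in RP (adjusted p = 0.00861) and 1.11 ± 0.22 SE in total RNA.

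Tnfsf8 encodes CD30 ligand, which binds CD30 (Tnfrsf8) on activated lymphocytes. The gene lies on chromosome 4 (ENSMUSG00000028362, chr4:63831308-63861347, minus strand). Its 4sU RNA stood at 3.65, 3.62, 8.95, 11.01 and 10.28 FPKM in replicate 1 at 0, 1, 2, 3 and 4 h, and at 24.14, 16.58 and 93.49 FPKM in replicate 2 at 0, 1 and 4 h. In RP it stood at 1.99, 0.80, 2.40, 11.36 and 16.86 FPKM in replicate 1 at 0, 0.5, 1, 2 and 4 h, and at 16.72, 14.75 and 179.35 FPKM in replicate 2 at 0, 1 and 4 h. Total RNA stood at 1.46, 3.29 and 6.04 FPKM in replicate 1 at 0, 2 and 4 h, and at 8.52, 7.41 and 46.12 FPKM in replicate 2 at 0, 1 and 4 h. Within each replicate the gene was near its control at 1 h and higher at 4 h, by 2.82 and 3.87 times in 4sU RNA, 4.14 and 5.41 times in total RNA and 8.47 and 10.73 times in RP. Between the replicates the groups overlapped in 4sU and total RNA, where the 4 h library of replicate 1 lay below the control of replicate 2, and did not quite overlap in RP (16.86 against 16.72 FPKM). No change of Tnfsf8 was called without the block, with 1.59 ± 1.25 SE in 4sU RNA (adjusted p = 0.354) and 2.96 ± 1.39 SE in RP (adjusted p = 0.168) at 4 h. With it both were called (adjusted p = 0.00105 and 0.000443), and so was total RNA (1.91 ± 0.22 SE).

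At 1 h, 1 of the 8 ligands was called higher in 4sU RNA, beside 0.183% of the 9278 genes tested, and 6 were called with the replicate block, beside 5.21%. In RP at 1 h, 1 was called higher beside 0.140% of 9312 genes, and 5 with the block beside 1.42%. In total RNA at 1 h, with 1 stimulated library, of replicate 2, no ligand was called by limma (beside 0% of 9078 genes). Unadjusted, 5 had a p below 0.05, beside 1197 of 9078 genes, and 5 were called with the block, beside 1.43%. Fasl, 1 of the 5 by unadjusted p, changed by 1.91 there, and by 1.14 from the control of its own replicate. In RP at 0.5 h, where limma called no gene (0%), no ligand was called, and none was called with the block (beside 0.0322%). Without the block 3 had an unadjusted p below 0.05, beside 743 of 9312 genes. In the untested pair with the short label, 3 ligands stood at least 2-fold higher at 0.5 h, Tnf, Lta (4.47 and 14.86 FPKM) and Tnfsf14 (0.83 and 5.80 FPKM), beside 0.694% of 9076 genes.

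At 2 h, 3 ligands were called higher in 4sU RNA (beside 3.87%), 5 in total RNA (beside 0.958%) and 5 in RP (beside 2.96%), in each case with 1 stimulated library. Fewer ligands were called in 4sU RNA and RP when either 0 h library was left out, and in total RNA without 0 h replicate 2. With 1 control left, no gene of all tested passed in 4sU RNA and few did in RP. The loss there does not single out the ligands. The 3 called in 4sU RNA then changed by 5.1 and 4.1 (Lta), 4.3 and 4.6 (Tnfsf14) and 3.7 and 4.3 (Tnfsf11). With the block the counts at 2 h were 8 (beside 13.3%), 7 (beside 5.33%) and 7 (beside 9.53%). At 3 h, 4 were called higher in 4sU RNA (beside 9.41%) and 6 with the block (beside 17.8%). Fewer ligands, and fewer of all genes, passed when either 0 h library was left out. At 4 h, 4 were called higher in 4sU RNA (beside 14.4%), 4 in total RNA (beside 6.47%) and 5 in RP (beside 12.1%). Fewer ligands, and fewer of all genes, passed in RP without 4 h replicate 1. Cd40lg also lost its RP call without 0 h replicate 1 or 4 h replicate 2 (changes 1.1 and 1.4). Tnf lost its call in 4sU RNA without 0 h replicate 1, 0 h replicate 2 or 4 h replicate 1 (changes 3.5, 2.5 and 2.4). In total RNA it lost its call without 4 h replicate 1 (change 2.6). With the block the counts at 4 h became 6 (beside 23.3%), 8 (beside 16.6%) and 8 (beside 21.3%). Tnf, Lta, Tnfsf14 and Tnfsf11 were called in all 3 kinds of library at 4 h without the block. The median change of the 8 ligands at 4 h was 2.28 in 4sU RNA, 2.19 in total RNA and 3.65 in RP, while that of all genes tested was -0.16, -0.10 and -0.10.

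Between 1 and 4 h the ligands parted. In 4sU RNA, Lta and Tnfsf11 were called higher (2 of 8, beside 11.9%) and Cd40lg lower (1 of 8, beside 14.7%). With the block, Tnfsf8 joined the higher calls (3, beside 22.0%) and Tnf and Fasl the lower (3, beside 32.2%). In RP, Lta and Tnfsf11 were again called higher (2 of 8, beside 7.65%) and none lower (beside 6.42%), and with the block 4 were higher (beside 17.5%) and 2 lower (beside 19.3%). These comparisons share the 4 h libraries with those against 0 h.

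**Figure D2:**
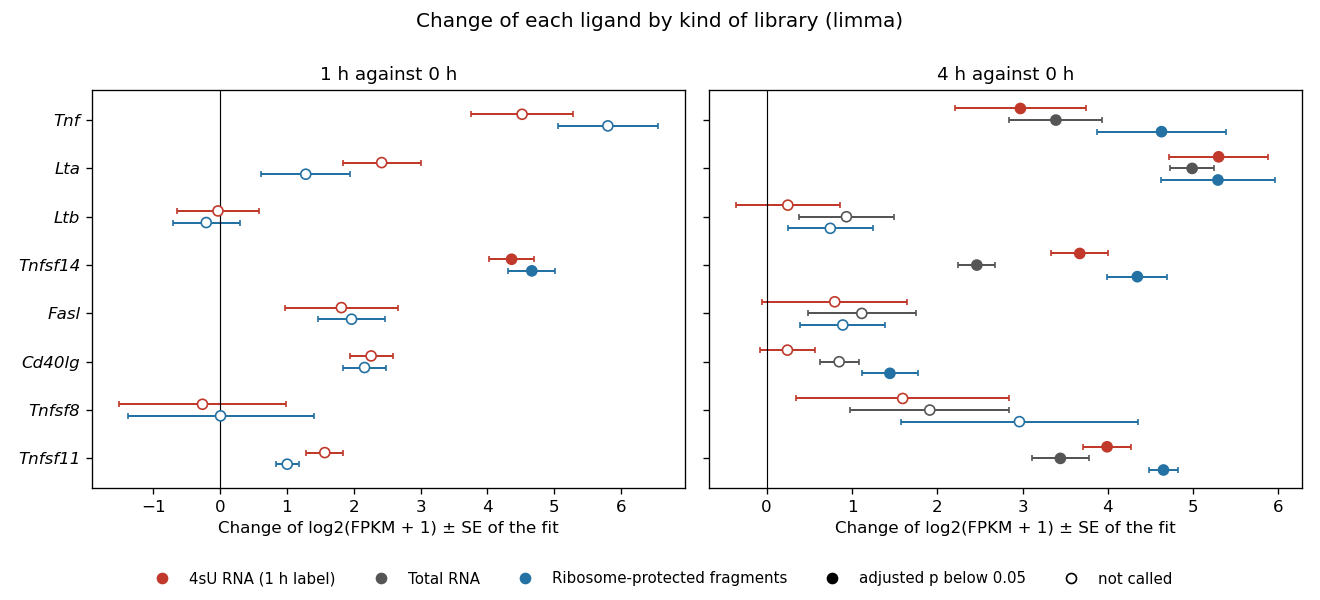
Change of log2(FPKM + 1) ± SE of the limma fit without the block for each ligand, at 1 h (left, 4sU RNA and RP) and 4 h (right, all 3 kinds) against 0 h. Filled points have an adjusted p below 0.05, which Tnfsf14 alone has at 1 h, and Lta, Tnfsf11, Tnf and Tnfsf14 have at 4 h in every kind, with Cd40lg in RP.

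The order of levels changed with time. In total RNA of unstimulated cells Ltb led in both replicates, Tnfsf14 and Tnfsf11 stood lowest, and the order of Tnf, Fasl, Cd40lg, Tnfsf8 and Lta between them differed between the replicates. At 4 h Ltb (316.67 and 220.46 FPKM), Lta (207.75 and 183.08 FPKM) and Tnf (269.81 and 93.02 FPKM) led in both, with ranges over libraries that overlapped for Tnf and each of the other two. The remaining 5 ligands stood between 5.75 and 46.12 FPKM at 4 h, and their order differed between the replicates.

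RP relative to total RNA gives the ribosome-protected signal per RNA, as log2 of (RP FPKM + 1) over (total RNA FPKM + 1), with the median gene between 1.21 and 1.399 at the 6 matched points. Cd40lg stood highest of the 8 at each of them, from 2.70 to 3.60, which is the 90.0 to the 97.2 percentile of 9021 genes. Fasl stood in the lower part of the genes at each point, from the 11.9 to the 36.7 percentile. Tnf stood at 0.60 and 0.91 in the 2 controls (percentiles 26.4 and 34.2), at 2.36 and 2.56 at 2 h in replicate 1 and 1 h in replicate 2 (83.8 and 83.3), and at 1.87 and 2.11 at 4 h. For Tnfsf14 the added 1 set much of the ratio at 0 h. Without it, the log2 ratio of Tnfsf14 was 2.08 at 0 h and 2.33 at 4 h in replicate 1, and 1.24 and 3.07 in replicate 2, with few reads at 0 h. Tnf moved in the same way without the added 1, from 0.62 and 0.97 at 0 h to 1.88 and 2.12 at 4 h, and Cd40lg stood highest of the 8 there too. Each point is 1 library over another, the 2 kinds of library differ in preparation, and the steps of the deposited values matched coding length in RP and full exon length in total RNA where they could be resolved. Percentiles between genes rest on these lengths, changes over time within a gene do not.

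The test of a different change between kinds of library called none of the 8 ligands. For RP against total RNA at 4 h, the difference in log2 change was 1.88 ± 0.44 SE for Tnfsf14 (unadjusted p = 0.00227, adjusted p = 0.855), 1.21 ± 0.41 SE for Tnfsf11 (unadjusted p = 0.0169) and 1.24 ± 1.10 SE for Tnf (unadjusted p = 0.290). With a pseudocount of 0.1 in place of 1 these differences shrank to 1.26 for Tnfsf14 and 0.56 for Tnfsf11. With the pseudocount of 1, 2 ligands had an unadjusted p below 0.05, beside 241 of 9021 genes. In the block fit 4 had, beside 607 of 9021. By adjusted p the block fit also called none of the 8 (beside 0.0333% of all genes). For 4sU against total RNA at 4 h, Tnfsf14 had a difference of 1.21 ± 0.42 SE (adjusted p = 0.717, and 0.73 with a pseudocount of 0.1). It was the 1 ligand with an unadjusted p below 0.05, beside 526 of 9033 genes. The block fit also had 1, beside 1377 of 9033, and called no ligand by adjusted p (beside 1.35%). For RP against 4sU RNA at 1 h no ligand had an unadjusted p below 0.05, beside 227 of 9191 genes. In the block fit 1 had, beside 770 of 9191. Without the block these tests called 0% of all genes.

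**Figure D3:**
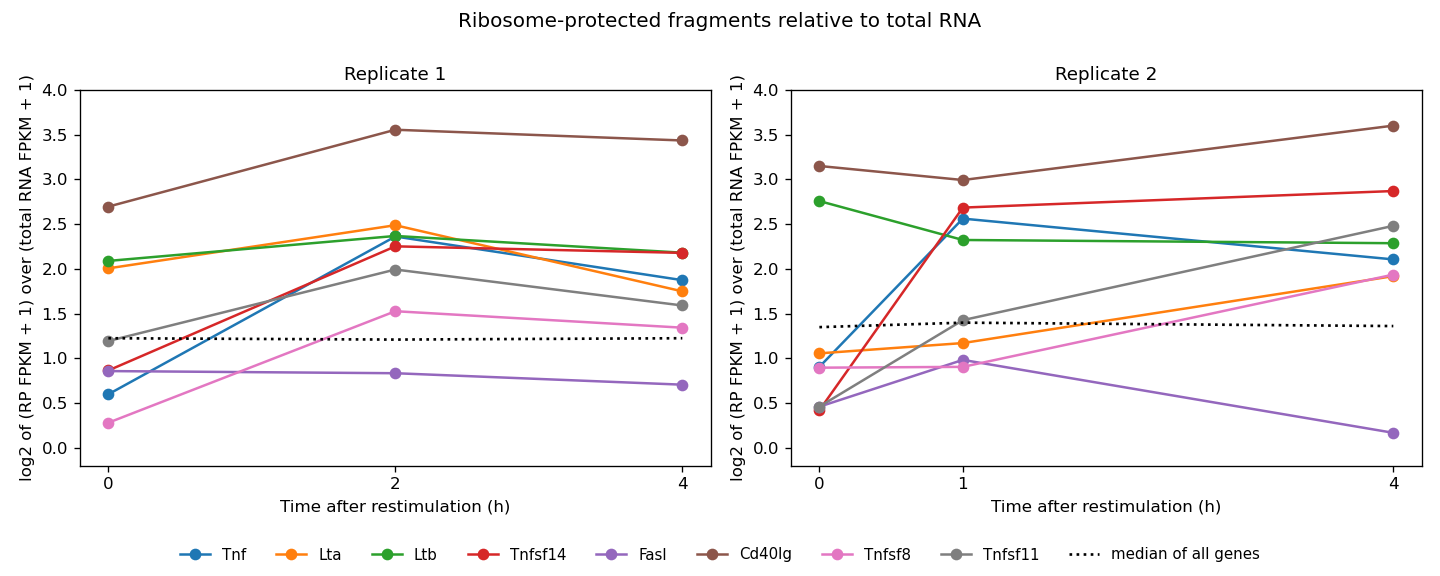
Log2 of (RP FPKM + 1) over (total RNA FPKM + 1) against hours after restimulation, 1 line per ligand, in replicate 1 (left) and replicate 2 (right), with the median of all genes dotted. Cd40lg is the top line throughout (2.70 to 3.60), and Tnf moves from below the median at 0 h to above it.

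4sU RNA relative to total RNA, on the same log2 scale, was high for Tnf and Fasl at all times. Tnf stood between the 96.4 and the 100.0 percentile of 9033 genes at the 6 matched points, and Fasl between the 94.1 and the 98.6 percentile. Without the added 1 these ranges were 92.9 to 99.6 for Tnf and 91.8 to 98.8 for Fasl. For Tnfsf14 the ratio of the controls depended on the added 1, since both values were near 0. Without it, the log2 ratio of Tnfsf14 was 0.87 at 0 h and 1.83 at 4 h in replicate 1, and 1.63 and 1.76 in replicate 2. Ltb at 4 h stood at the 60.9 percentile in replicate 1 and the 20.1 percentile in replicate 2. As sequence context, AU-rich elements are stretches in the 3′ untranslated region (UTR) that are known to shorten the life of cytokine mRNAs, and those of Tnf are a classic example. The longest annotated 3′ UTR of Tnf held 8 ATTTA pentamers and 5 copies of the nonamer TTATTTATT, of which 1.9% of 9374 genes hold 2 or more. That of Lta held 3 pentamers and 1 nonamer, and that of Ltb neither. Tnfsf8 held 10 pentamers, Tnfsf11 6, Cd40lg 2, and Tnfsf14 and Fasl 1 each, all without the nonamer, where the median gene held 2. Decay was not measured in these libraries.

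The replicate numbers differed in level for 5 of the 8 ligands in the same direction in every group that had both. Over 8 such groups, Tnf was higher in replicate 1 in 8, by 1.66 to 4.08 times, Ltb in 8, by 1.33 to 3.46 times, and Lta in 8, by 1.01 to 3.44 times. Fasl was higher in replicate 2 in 8 of 8 groups, by 1.45 to 4.12 times, and Tnfsf8 in 8 of 8, by 4.58 to 10.6 times. Cd40lg was higher in replicate 1 in 3 groups, Tnfsf11 in 5 and Tnfsf14 in 6. The libraries with the short label carried no replicate number, and at 0 h held 58.46 FPKM of Fasl and 29.81 FPKM of Tnfsf8.

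The 6 CD8 T cell markers checked, all in the table, summed to between 287.85 and 373.31 FPKM in total RNA of replicate 1 and between 45.9 and 56.13 FPKM in replicate 2. Gzma made up most of that gap. In the pooled medians Cd8a (31.25 against 11.27 FPKM) and Cd8b1 (48.01 against 11.17 FPKM) went the same way, and Klrk1 the other. Of 6 NK cell markers 4 (Ncr1, Klrb1c, Klre1 and Klra8) were not in the table and 2 were, Klrd1 and Gzma (also in the CD8 list), which summed to between 202.47 and 274.98 FPKM in total RNA of replicate 1 and 7.35 and 13.82 FPKM in replicate 2. Klrd1 alone had a median of 13.95 against 9.40 FPKM. Of 6 B cell markers 4 were in the table (2.33 to 13.49 FPKM summed in replicate 1, 2.38 to 2.78 in replicate 2), and of 6 macrophage markers only Cd68 (0.86 to 1.70 and 0.43 to 1.30 FPKM). Of 6 dendritic cell markers 3 were in the table, genes of antigen presentation, at 26.11 to 64.32 FPKM summed in replicate 1 and 19.94 to 22.7 FPKM in replicate 2. The 4 regulatory T cell genes, with Il2ra and Ctla4 that effector cells also make, summed to between 251.64 and 453.87 FPKM in replicate 1 and between 282.62 and 500.83 FPKM in replicate 2, and Foxp3 alone had a median of 2.14 and 2.01 FPKM. The 4 Th2 genes summed to between 7.52 and 39.93 and between 14.66 and 27.26 FPKM. Of these, Gata3 had a higher median in replicate 2 (14.2 against 40.21 FPKM). Il4 (10.28 against 1.21 FPKM), Il5 and Il13 were higher in replicate 1. The part of these cells in the difference of the ligands between replicates was not tested. In these bulk samples fewer cells of a type and less RNA per cell cannot be told apart.

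**Figure D4:**
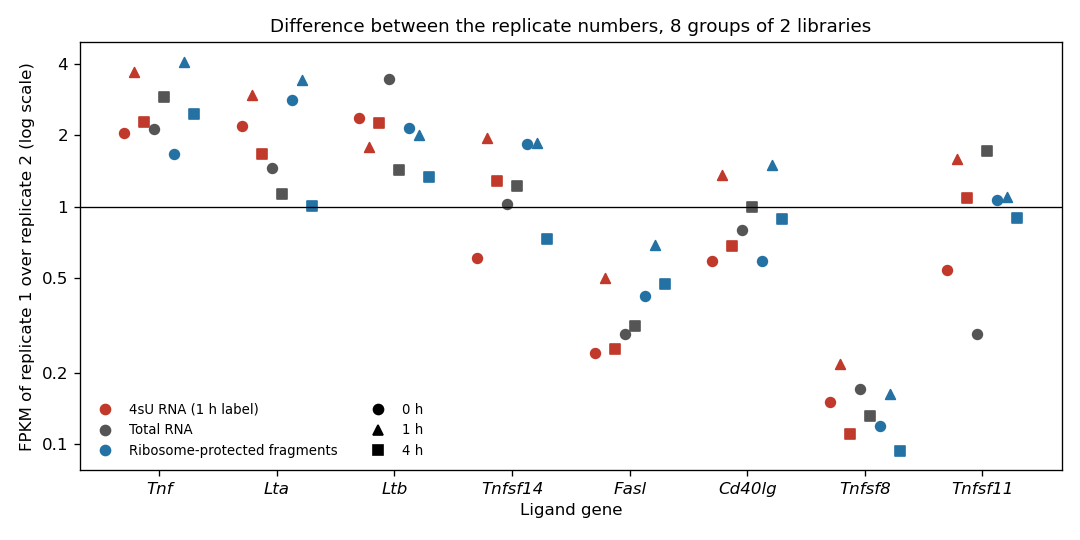
FPKM of replicate 1 over replicate 2 (log axis) for each ligand in the 8 groups with both libraries, coloured by kind of library and shaped by time. All points of Tnf, Lta and Ltb lie above 1, and all points of Fasl and Tnfsf8 lie below 1, with Tnfsf8 lowest.

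Likeness of course was measured as the mean absolute difference of log2(FPKM + 1) change from the 0 h mean over the 17 libraries after 0 h, among 8807 genes, and says nothing of shared control. That mean is over both replicate numbers, save with the short label, so a standing level difference between them counts in the distance. In 4sU RNA at 4 h, replicate 1 of Tnfsf8 lay 0.06 above that mean and 1.28 above its own control. Closest to Tnf were Egr2 (0.98), Nr4a1 (1.11) and Il21 (1.16), the first 2 being immediate early transcription factors, while the median gene was 4.35 away. Closest to Tnfsf14 were Nr4a3 (0.80), Gem (0.83) and Egr2 (0.88). Closest to Lta were Cish (0.70), Rgs16 (0.75) and Myc (1.03), and closest to Tnfsf11 were Havcr2 (0.52), Mfsd2a (0.57) and Myc (0.57). Cd40lg was closest to Arl5b (0.36), Dusp5 (0.49) and Tnfaip3 (0.49), Fasl to Sik1 (0.46), Crem (0.50) and Slc2a1 (0.55), Tnfsf8 to Nrn1 (0.44), Tent5a (0.66) and Cd200 (0.74), and Ltb to Axl (0.27), S1pr2 (0.28) and Pop5 (0.28). Among the ligands, Fasl and Cd40lg were 0.71 apart, Lta and Tnfsf11 0.93 and Tnf and Tnfsf14 0.98. The neighbours on chromosome 17 were further apart, at 2.02 for Tnf and Lta, 3.05 for Lta and Ltb and 3.74 for Tnf and Ltb.

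The receptors of the ligands are partly carried by T cells themselves. Of 28 receptors listed, 19 were in the table, and at 4 h limma called 3 of them higher and 7 lower in 4sU RNA (beside 14.4% and 18.9% of all genes tested), and 5 higher and 5 lower in RP (beside 12.1% and 12.9%). With the replicate block these were 7 higher and 8 lower in 4sU RNA (beside 23.3% and 35.4%), and 7 and 7 in RP (beside 21.3% and 26.7%). Tnfrsf1a, which encodes TNFR1, fell from 50.1 and 37.96 FPKM to 19.0 and 20.03 FPKM in 4sU RNA (-1.12 ± 0.20 SE, adjusted p = 0.0104) and was also called lower in RP (-1.26 ± 0.21 SE, adjusted p = 0.0124). Tnfrsf14, the HVEM receptor of LIGHT, fell from 64.38 and 48.05 FPKM to 20.78 and 19.45 FPKM in 4sU RNA (-1.42 ± 0.20 SE, adjusted p = 0.00532) and was called lower in RP (-1.39 ± 0.37 SE, adjusted p = 0.0425). In both genes the 4 h libraries lay below both controls. Tnfrsf1b, which encodes TNFR2, stood at 78.91 and 55.23 FPKM at 0 h and 85.79 and 70.58 FPKM at 4 h in 4sU RNA (adjusted p = 0.581). Fas changed by -0.53 ± 0.23 SE (adjusted p = 0.128), Tnfrsf8 by 2.50 ± 0.86 SE (adjusted p = 0.0677) and Cd40, at or below 2.23 FPKM at 0 and 4 h, by 0.65 ± 0.35 SE (adjusted p = 0.195), and none of these was called. Ltbr and Tnfrsf11a were not in the table.

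Among the receptors called in RP at 4 h, those that rose most, Tnfrsf9 and Tnfrsf4, bind ligands outside the 8. Tnfrsf9 (4-1BB), a costimulatory receptor, went from 8.93 and 13.65 FPKM to 176.6 and 309.77 FPKM in 4sU RNA at 4 h (4.28 ± 0.33 SE, adjusted p = 0.00197) and from 149.94 and 263.93 FPKM to 1892.64 and 2390.5 FPKM in RP. Tnfrsf4 (OX40), also costimulatory, changed by 3.15 ± 0.20 SE in RP (adjusted p = 0.00344), and Tnfrsf26, a mouse receptor of the family, by -2.81 ± 0.18 SE in 4sU RNA (adjusted p = 0.00164). Of 10 other ligands 5 were in the table and 4 were tested. At 4 h, 1 of these was called higher in 4sU RNA (beside 14.4%) and 2 in RP (beside 12.1%). With the block 3 were called higher in each (beside 23.3% and 21.3%). Tnfsf9, the ligand of 4-1BB, was called higher in 4sU RNA at 4 h (1.42 ± 0.37 SE, adjusted p = 0.0315) and in RP (2.22 ± 0.30 SE, adjusted p = 0.00748), and Cd70, the ligand of CD27, in RP (2.80 ± 0.30 SE, adjusted p = 0.00526), from 0.17 and 0.77 FPKM to 10.56 and 7.67 FPKM.

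All 25 intracellular signalling genes listed were in the table. At 4 h the calls among them were 1 higher and 5 lower in 4sU RNA (beside 14.4% and 18.9% of all genes tested), and 5 higher and 2 lower in RP (beside 12.1% and 12.9%). The block fit gave 6 higher and 5 lower calls in 4sU RNA (beside 23.3% and 35.4%), and 9 and 4 in RP (beside 21.3% and 26.7%). Traf4, an adaptor of the family, rose (1.92 ± 0.22 SE in 4sU RNA, adjusted p = 0.00332), and Traf5, an adaptor of costimulatory receptors, fell (-1.11 ± 0.18 SE, adjusted p = 0.00744). Tnfaip3, the A20 inhibitor of NF-κB, stood at 19.33 and 22.65 FPKM at 0 h and 82.84 and 76.96 FPKM at 4 h in RP (1.88 ± 0.18 SE, adjusted p = 0.00470). Of 8 genes that act on shedding or cleavage of the ligands 6 were in the table. At 4 h there were 1 higher and 1 lower call among them in 4sU RNA (beside 14.4% and 18.9%), and 1 lower call in RP (beside 12.9%). The block gave 2 higher and 3 lower in 4sU RNA (beside 23.3% and 35.4%). In RP it gave 2 higher and 1 lower (beside 21.3% and 26.7%). Frmd8, which stabilises the sheddase complex that releases TNF, fell from 114.39 and 97.66 FPKM to 20.6 and 19.17 FPKM in 4sU RNA (-2.35 ± 0.17 SE, adjusted p = 0.00183) and was called lower in RP (-2.48 ± 0.19 SE, adjusted p = 0.00430). Sppl2b, an intramembrane protease, was the other called member (1.00 ± 0.30 SE in 4sU RNA, adjusted p = 0.0457). The median changes of the receptor, signalling and processing lists in 4sU RNA at 4 h were -0.21, -0.13 and -0.14, beside -0.16 over all genes tested.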

How the data were processed

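The authors deposited FPKM values for 9420 genes in 24 libraries. The counting behind them used featureCounts (Subread 1.4.6-p3) and the GRCm38 build, per the submitters' processing notes. The aligner, annotation, gene lengths and gene filter were not given in the sources used here. Of the gene identifiers, 9412 matched a GENCODE M21 symbol and 8 did not.

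From these values, log2(FPKM + 1) was fitted per kind of library with limma 3.58.1 in R 4.3.3 (time as groups, variance trend, Benjamini-Hochberg adjustment over all genes with a mean of at least 1 FPKM), and checked on simulated data. Where 1 side was a single library, its spread was taken to be that of the replicated groups. Without the block, its change against the mean of both controls also holds any difference in level between the replicate numbers. Residual degrees of freedom were 3 for 4sU RNA, 2 for total RNA and 3 for RP. The labels do not say if replicates came from different animals or cultures, and p-values may reflect technical spread alone. Deviations from group means correlated between libraries of the same replicate number in all 28 pairs of groups (0.306 to 0.79, median 0.598), so the numbers were taken to pair the libraries, on the data and not the labels. Alternatives were the replicate block, a pseudocount of 0.1, no filter, median-of-ratios scaling and leaving out each replicate. With the block total RNA keeps 1 residual degree of freedom, so its calls are given without p-values. Named genes were the 8 ligands, their receptors, the 2 called members of each pathway list with the largest change at 4 h in 4sU RNA and in RP, and the 3 genes closest in course to each ligand. The members and lists were chosen with earlier results of these data known. Depth was inferred from the steps between small FPKM values (up to 8 reads, tolerance 0.1 read), and resolved where at least 80% were whole.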

Additional observations from a re-analysis of the deposited data

How the results depend on the processing

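The replicate block raised the number of ligands called from 1 to 6 in 4sU RNA at 1 h, from 3 to 8 at 2 h and from 3 to 6 at 4 h against 1 h. In total RNA it rose from 0 to 5 at 1 h and from 4 to 8 at 4 h, and in RP from 1 to 5 at 1 h, from 5 to 8 at 4 h and from 2 to 6 at 4 h against 1 h. The block turned the sign of Tnfsf8 at 2 h, to 1.12 from -0.12 in 4sU RNA and to 1.00 from -0.17 in total RNA, where only replicate 1 was sampled. A pseudocount of 0.1 called 1 ligand in total RNA at 1 h (Tnfsf14). Median-of-ratios scaling, which moved the median change of all genes in 4sU RNA at 4 h from -0.16 to -0.01, and no filter left every count within 1.5 times. With libraries left out in turn, 1 library remained in a group. The number of ligands called then fell by more than 1.5 times in some fits. In 4sU RNA this was at 1, 2 and 3 h and at 4 h against 1 h, and in total RNA at 2 h. In RP it was at 1, 2 and 4 h and at 4 h against 1 h, while RP at 1 h gained a call without 1 h replicate 2. When either 0 h library was left out, no gene of all tested passed in 4sU RNA at 1 or 2 h or in RP at 1 h. The same held in RP at 4 h against 1 h without 4 h replicate 1. Lost calls there do not single out the ligands. Among values of single ligands with 1 library left out, 398 kept their direction and side of the threshold, 40 lost their call, 2 gained one and 72 that were never called changed sign. Depth was resolved in 11 libraries, and reads behind Tnfsf14 at 0 h were few. Ratios between kinds of library were also taken without the added 1, chosen after seeing the data, and 6 of 32 values at 0 and 4 h then moved by more than the spread between replicates.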
